A study of Mus musculus with 10 samples.

Results

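The genes of the ADAM, ADAMTS, MMP and TIMP families were examined in differentiating C2C12 cells, a mouse myoblast line that fuses into myotubes when serum is lowered. A gene was taken as a member when its symbol began with *Adam* and a digit, with *Adamts* or with *Mmp* and a digit, or was *Timp1* to *Timp4*, and when protein_coding was among the transcript types that the deposited table lists for it. This gave 85 of the 55359 genes in the table: 34 ADAM, 19 ADAMTS, 5 ADAMTSL, 23 MMP and 4 TIMP genes. For 31 of them protein_coding was the only type, and for 54 other transcript types were listed as well.

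Bulk RNA sequencing was done on 10 libraries, 5 from cells that received siRNA directed at *Fndc1* (named si-*Fndc1*) and 5 from cells that received control siRNA (named si-Control). As recorded for the samples, both groups were C2C12 cells of the same line, were grown with 20% FBS, received siRNA at 100 nM and were collected at day 4 of differentiation in 2% horse serum, so that the siRNA was the labelled difference. The question was how the transcriptome of differentiating myoblasts changes when *Fndc1*, which encodes a secreted protein with fibronectin type III domains, is knocked down. The study's general statement on independent experiments is not tied to these 10 libraries, and the labels do not say whether the replicates were separate cultures, so the p-values measure the spread between these libraries, which may be technical.

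ADAMs are membrane-anchored proteases that cut other membrane proteins near the cell surface, a step called shedding, and several of them act on growth factor precursors, Notch receptors or adhesion molecules. ADAMTS proteins are the secreted branch, which binds the matrix and cuts proteoglycans or the propeptides of procollagens, and the ADAMTS-like (ADAMTSL) proteins keep the matrix-binding domains but have no protease domain. Matrix metalloproteinases (MMPs) cut collagens, laminins and other matrix proteins, and tissue inhibitors of metalloproteinases (TIMPs) bind to the active site and block it. In skeletal muscle these genes are known for matrix remodelling during growth and repair, and several ADAMs are known from myoblast fusion.

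The active site shows how the subfamilies belong together and where they part. Most of the active enzymes share an extended zinc-binding motif, in which 3 histidines hold a zinc ion, a glutamate takes part in catalysis and a glycine allows a turn of the chain. Translation of the reference coding sequences (NCBIM37, longest coding transcript of each gene) found this motif in 21 of 34 ADAM, 13 of 19 ADAMTS and 23 of 23 MMP genes, and in 0 of 5 ADAMTSL and 0 of 4 TIMP genes. All 7 ADAM and 8 MMP genes that were expressed highly enough to be tested carried it, and of the ADAMTS genes tested *Adamts1*, *Adamts4* and *Adamts8* matched only the shorter core of the motif. The search asked for the glycine and the last histidine together. A miss therefore does not say that the last histidine is absent, and which position differed was not examined. The codons follow, 5′ to 3′ on the coding strand, for the members with an active site whose transcripts fell in si-*Fndc1* and for 3 abundant members that did not pass the test, with the codons of the 3 histidines, the glutamate and the glycine in capitals.

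Mmp14: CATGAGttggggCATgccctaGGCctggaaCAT
Mmp15: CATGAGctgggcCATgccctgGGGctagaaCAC
Mmp28: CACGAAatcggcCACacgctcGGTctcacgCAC
Mmp2: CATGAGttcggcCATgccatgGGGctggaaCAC
Adam15: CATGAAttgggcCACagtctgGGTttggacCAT
Adam19: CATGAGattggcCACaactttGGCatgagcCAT
Adam9: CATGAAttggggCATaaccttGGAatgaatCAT
Adam10: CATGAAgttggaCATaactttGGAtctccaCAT
Adamts2: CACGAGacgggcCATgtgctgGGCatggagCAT
Adamts14: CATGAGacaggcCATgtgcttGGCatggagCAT
Adamts7: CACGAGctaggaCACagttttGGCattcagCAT
Adamts5: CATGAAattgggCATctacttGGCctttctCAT

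In NCBIM37 coordinates the Mmp14 window lies within 1 coding exon, at chr14:55056464-55056496 on the + strand, and that of Mmp15 within 1 coding exon at chr8:97892485-97892517 on the + strand. The Mmp2 window lies at chr8:95363178-95363210 on the + strand and the Adam15 window at chr3:89148702-89148734 on the - strand, each again within 1 exon. In all 4 ADAMTS genes shown, and also in Adam10, the codons are split by an intron, as in Adamts2, where they span chr11:50588905-50589636 on the + strand.

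The 10 libraries held 56332844 to 75995168 counts each, and the 10 most abundant genes took 9.24% to 10.0% of them. *Fndc1* itself was at 26.7, 24.7, 28.7, 29.6 and 29.2 FPKM in si-Control libraries 1 to 5 and at 20.4, 23.5, 20.8, 21.1 and 18.7 FPKM in si-*Fndc1* libraries 1 to 5, so that the groups did not overlap and the mean fell by 24.8%. Its log2 fold change was -0.40 (edgeR adjusted p = 0.00093), and -0.22 (adjusted p = 0.011) after the GC and length correction described with the results. FPKM is the number of fragments per kilobase of transcript and scaled to the library's total, which allows levels of different genes to be compared. All 10 markers of differentiating muscle were expressed (3 were called higher and 1 lower), with *Acta1* between 1716 and 2175 FPKM. All 15 liver genes on the list of markers were higher in every si-*Fndc1* library than in any si-Control library (summed FPKM 55.2 to 197 against 0.213 to 6.94, at most 0.0362% of counts), whereas summed testis, brain and endothelial markers stayed at or below 0.292 FPKM in every library and those of macrophages and neutrophils between 3.24 and 4.33 FPKM. The part of these liver transcripts in the results below was not tested.

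Of the 85 members, 34 passed the filter on low values (a mean of at least 0.5 FPKM over the 10 libraries), 27 had counts but lay below it and 24 had no count in any library. *Timp1*, *Timp2* and the gelatinase *Mmp2* were the most abundant, as the plot of levels in each library shows. *Timp1* ranked first among all members, followed by *Timp2*, *Mmp2*, *Mmp14*, *Timp3* and *Adam9*. The summed level of the TIMP genes was 687 ± 10.5 FPKM (SD, n = 5) in si-Control, that of the MMP genes 460.2 ± 15.1 FPKM, that of the ADAMTS genes 180.1 ± 8.31 FPKM and that of the ADAM genes 128 ± 6.85 FPKM. In si-*Fndc1* the corresponding sums were 725 ± 14.9, 417 ± 15.8, 157 ± 2.70 and 122 ± 8.43 FPKM (SD, n = 5). The ADAMTSL genes summed to 42.3 ± 1.45 FPKM in si-Control and 36.3 ± 2.51 FPKM in si-*Fndc1*. These sums are a description and follow the few abundant genes, *Mmp2* alone giving 57.2% of the MMP sum.

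**Figure D1:**
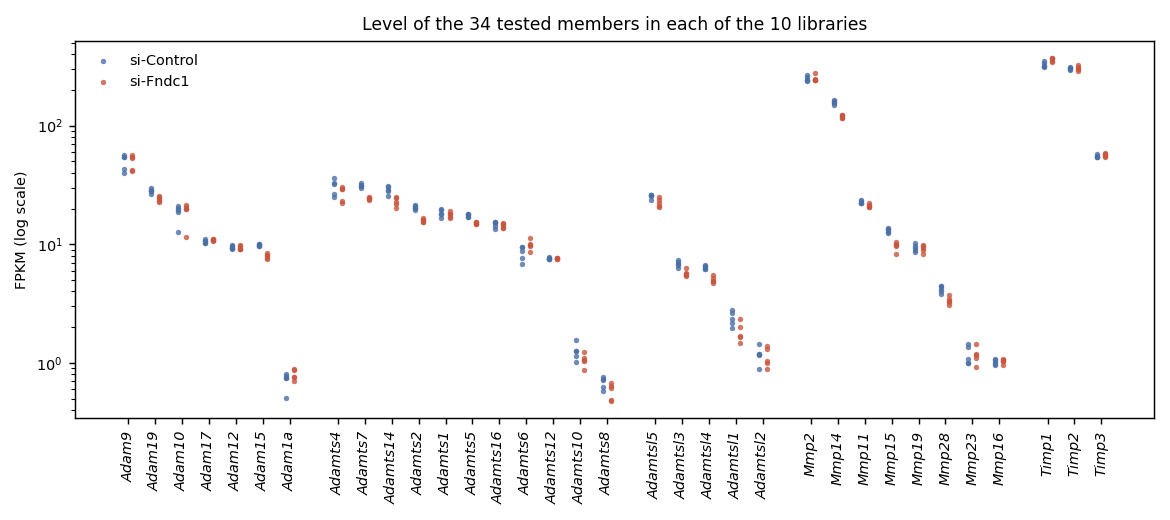
FPKM (log scale) of the 34 members that passed the filter, ordered by subfamily and by mean level, with 1 point for each of the 5 si-Control (blue) and 5 si-Fndc1 (red) libraries. Timp1, Timp2 and Mmp2 lie above 200 FPKM in every library, and Adamts8 and Adam1a lie below 1 FPKM.

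Across the 13548 genes tested with edgeR's quasi-likelihood test, 4663 (34.4%) were called at a Benjamini-Hochberg adjusted p under 0.05, of which 2325 (17.2%) were lower and 2338 (17.3%) higher in si-*Fndc1*. Of the 34 tested members 13 were called, which is a share close to that of all genes, but 12 of them were lower and 1 was higher. The median log2 fold change (si-*Fndc1* over si-Control) was -0.07 over the 34 members and 0.004 over all genes tested. In 11 members the FPKM values of the groups did not overlap, and all 11 were lower in si-*Fndc1*, beside 13.0% of all tested genes that were lower without overlap and 12.1% that were higher. By subfamily, 2 of 7 tested ADAM, 4 of 11 ADAMTS, 3 of 5 ADAMTSL and 3 of 8 MMP genes fell, and 1 of 3 TIMP genes rose. By the two-sided exact permutation test on FPKM the 11 members without overlap had the smallest p that 5 against 5 libraries allow, 0.0079, and *Adamtsl5*, *Mmp11* and *Timp1* had 0.016, without adjustment. In bulk RNA, fewer cells that express a gene and less of its RNA per cell cannot be told apart.

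The fold changes also moved with the GC content of the transcripts, in these genes as in the rest of the transcriptome, and this bears on each call below. Over the 11185 tested genes with a reference transcript the Spearman correlation between GC content and log2 fold change was -0.52, and over the 34 members it was -0.63, both given as descriptions over genes of the same libraries. Among members with a GC content of 55% or more 8 of 15 fell, with 2 of 7 between 50% and 55% and 2 of 12 below 50%. The share of all genes that fell was 40.8%, 21.6% and 5.97% in the same 3 classes. When the trend with GC content and length was removed from each library before the test, 11.0% of all genes were lower and 11.6% higher, and 7 members were called. Of these, *Mmp14*, *Adamts2*, *Adamts5*, *Adamts7* and *Adamtsl3* were lower, and *Adam12* and *Adamts12* were higher. A GC trend of the libraries and a change of GC-rich transcripts in the cells cannot be told apart here.

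*Mmp14* encodes MT1-MMP, a membrane-anchored collagenase that also activates pro-MMP2 at the cell surface. Its gene is listed at chr14:54669069-54678722 on the + strand. Its level was 151, 158, 165, 155 and 163 FPKM in si-Control libraries 1 to 5 and 117, 124, 119.7, 117 and 123 FPKM in si-*Fndc1* libraries 1 to 5. No si-*Fndc1* library reached the level of any si-Control library. The log2 fold change was -0.39 (SE 0.03, adjusted p = 2.4e-05 by edgeR), a fall of the mean FPKM from 158 ± 5.63 to 120.2 ± 3.32 (SD, n = 5), and it was -0.22 (adjusted p = 0.00077) after the GC and length correction. In counts *Mmp14* was among the best measured members, with 45858 to 77651 per library.

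*Mmp2*, the gelatinase whose proenzyme MT1-MMP activates, lay at 244, 266, 258, 238 and 244 FPKM in si-Control and at 244, 243, 248, 244 and 278 FPKM in si-*Fndc1*. The groups overlapped, with si-*Fndc1* replicate 5 as the highest library. The log2 fold change was 0.01, with an approximate 95% interval of -0.07 to 0.10 (edgeR adjusted p = 0.84). *Timp2*, whose product bridges MT1-MMP and pro-MMP2, was at 302, 292, 313, 309 and 304 FPKM in si-Control and at 312, 326, 302, 299 and 290.1 FPKM in si-*Fndc1*. It too overlapped, with a log2 fold change of 0.02 (interval -0.06 to 0.09, adjusted p = 0.76). *Mmp14* FPKM divided by *Timp2* FPKM, a ratio chosen after the values were seen, ran from 0.50 to 0.543 in si-Control and from 0.376 to 0.425 in si-*Fndc1*. *Mmp2* divided by *Timp2* ran from 0.773 to 0.910 and from 0.744 to 0.958.

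*Mmp15* encodes a second membrane-anchored member of the family, MT2-MMP, and is listed at chr8:96078896-96101708 on the + strand. It was at 13.2, 12.4, 13.4, 13.8 and 12.6 FPKM in si-Control and at 10.0, 10.5, 9.77, 9.68 and 8.28 FPKM in si-*Fndc1*. The groups did not overlap, and the log2 fold change of -0.43 (SE 0.06, adjusted p = 0.00038 by edgeR) was the largest fall among the called members. Its transcript has the highest GC content of the tested members (61.1%), and after the correction the change was -0.14 (adjusted p = 0.062), which is not a call. *Mmp28*, a secreted MMP, was at 4.42, 4.03, 4.47, 3.81 and 4.16 FPKM against 3.32, 3.73, 3.28, 3.07 and 3.45 FPKM. It fell by 0.30 on the log2 scale without overlap (SE 0.07, adjusted p = 0.0052), and the corrected change was -0.11 (adjusted p = 0.25). A gene on the opposite strand that overlaps *Mmp28* had 11.4% as many counts.

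*Mmp11*, stromelysin-3, was the third most abundant MMP, at 23.2, 22.1, 23.6, 22.2 and 22.2 FPKM in si-Control and 21.4, 20.8, 20.9, 22.1 and 20.5 FPKM in si-*Fndc1*. Its log2 fold change of -0.09 (approximate 95% interval -0.16 to -0.03, edgeR adjusted p = 0.059) missed the threshold and was called without si-*Fndc1* replicate 4 (adjusted p = 0.036). Tests with limma also called *Mmp11* lower, on log2(FPKM + 1) (0.035), log2(FPKM + 0.1) (0.036) and quantile-normalized log2(FPKM + 1) (0.049). In total *Mmp11* was called in 4 of 24 alternatives. With the GC and length correction its log2 fold change was 0.0056 (adjusted p = 0.92). *Mmp19*, *Mmp16* and *Mmp23* had log2 fold changes of -0.01, 0.03 and 0.00, with SE of 0.06, 0.06 and 0.15, and none was called. *Mmp19* shares its place with *Tmem198b* on the opposite strand, which had 73.8% as many counts, and the sources used here do not give the strand setting of the counting.

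Among the inhibitors, *Timp1*, a secreted inhibitor of most MMPs, was the only member called higher. It was at 315, 348, 319, 319 and 336 FPKM in si-Control and at 367, 354, 345, 371 and 373 FPKM in si-*Fndc1*. Of the si-*Fndc1* libraries 4 lay above every si-Control library, and the groups overlapped at si-Control replicate 2. The log2 fold change was 0.15 (SE 0.04, adjusted p = 0.0082 by edgeR), and after the GC and length correction it was -0.02 (adjusted p = 0.82). *Timp1* lies within *Syn1* on the opposite strand, for which 7.84% as many counts were listed. *Timp3*, which stays bound to the matrix and also inhibits ADAM17, was at 55.4, 54.7, 54.6, 54.3 and 57.3 FPKM against 58.2, 58.4, 55.3, 57.0 and 54.7 FPKM, a log2 fold change of 0.04 (interval -0.02 to 0.10, adjusted p = 0.29). *Timp4*, below the filter, had 35 to 60 counts in the si-Control and 11 to 54 in the si-*Fndc1* libraries.

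**Figure D2:**
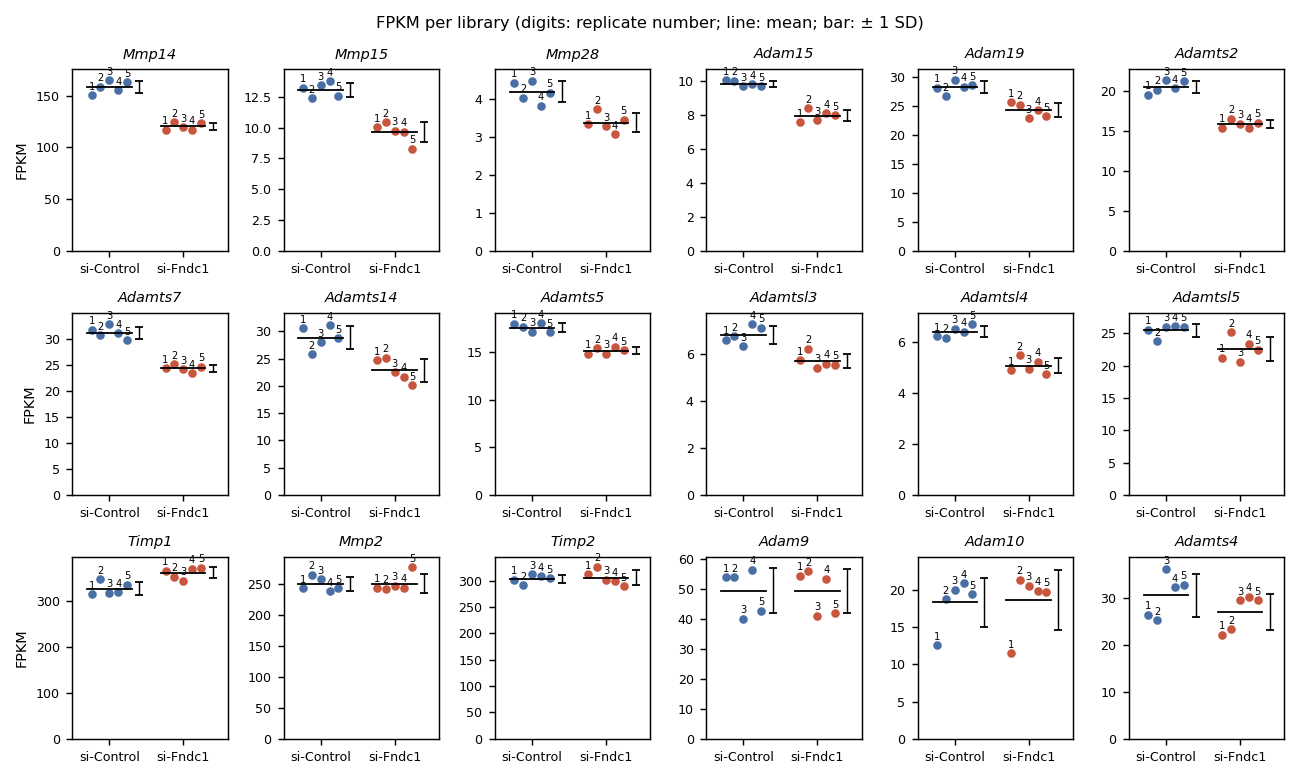
FPKM in each library for the 13 called members and for Mmp2, Timp2, Adam9, Adam10 and Adamts4, with si-Control in blue and si-Fndc1 in red, the replicate number above each point, the mean as a line and ± 1 SD as a bar. Every si-Fndc1 library of Mmp14 is at or below 124 FPKM and every si-Control library at or above 151 FPKM, and Adam9 and Adam10 are low in the same replicate numbers of both groups.

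Of the secreted ADAMTS proteases 4 fell, each without overlap between the groups. *Adamts2* and *Adamts14* encode procollagen N-proteinases, which remove the amino-terminal propeptides of fibrillar procollagens. *Adamts2*, listed at chr11:50492911-50698400 on the + strand, was at 19.5, 20.1, 21.3, 20.3 and 21.2 FPKM in si-Control and 15.4, 16.5, 15.9, 15.4 and 16.0 FPKM in si-*Fndc1*. The log2 fold change was -0.36 (SE 0.03, adjusted p = 4.0e-05 by edgeR), and it was -0.17 with the correction (adjusted p = 0.0078). *Adamts14* was at 30.6, 25.8, 28.0, 31.2 and 28.8 FPKM against 24.7, 25.1, 22.5, 21.7 and 20.1 FPKM. The lowest si-Control and the highest si-*Fndc1* library lay close together, the log2 fold change was -0.33 (SE 0.07, adjusted p = 0.0042), and the corrected change of -0.08 was not called (adjusted p = 0.38). *Adamts3*, the remaining member of this procollagen group, was listed with 8 to 24 counts in the si-Control libraries, with 8 in 1 si-*Fndc1* library and with 0 in the other 4.

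*Adamts7*, whose product cuts cartilage oligomeric matrix protein, was at 31.8, 30.7, 32.8, 31.1 and 29.7 FPKM in si-Control and 24.4, 25.1, 24.2, 23.4 and 24.7 FPKM in si-*Fndc1*. The values were tightly grouped on both sides, with a log2 fold change of -0.35 (SE 0.03, adjusted p = 3.6e-05 by edgeR) and a corrected one of -0.12 (adjusted p = 0.026). The gene overlaps *Tbc1d2b* on the opposite strand, which had 23.1% as many counts. *Adamts5*, an aggrecanase that also cuts versican, was at 17.9, 17.6, 17.1, 18.0 and 17.1 FPKM against 14.8, 15.4, 14.8, 15.5 and 15.2 FPKM. It fell by 0.20 on the log2 scale (SE 0.03, adjusted p = 0.00035). *Adamts5* has a low GC content (44.6%), a class in which 5.97% of all genes fell, and its corrected change was -0.22 (adjusted p = 0.00042).

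The other 7 tested ADAMTS genes did not pass edgeR's test. *Adamts4*, the most abundant ADAMTS in the mean of all 10 libraries but not in that of si-Control, where *Adamts7* was higher, was at 26.3, 25.2, 36.0, 32.2 and 32.7 FPKM in si-Control and 22.1, 23.3, 29.4, 30.2 and 29.4 FPKM in si-*Fndc1*. Replicates 1 and 2 were the low libraries in both groups, and the log2 fold change was -0.17 (SE 0.12, edgeR adjusted p = 0.29). *Adamts1*, which also cuts versican, was at 19.3, 16.6, 18.1, 19.8 and 18.0 FPKM against 17.8, 19.2, 16.6, 18.1 and 17.1 FPKM (log2 fold change -0.04, interval -0.14 to 0.07, adjusted p = 0.60). *Adamts6* had the largest positive log2 fold change of the tested members, 0.23 (SE 0.10, adjusted p = 0.084, and 0.049 by DESeq2), and 4 si-*Fndc1* libraries above all si-Control libraries. *Adamts16*, *Adamts12*, *Adamts10* and *Adamts8* lay at log2 fold changes of -0.02, 0.01, -0.22 and -0.24, with SE of 0.05, 0.03, 0.12 and 0.13. With the correction *Adamts12*, at 7.57 ± 0.141 against 7.58 ± 0.115 FPKM (SD, n = 5), was called higher by 0.11 (adjusted p = 0.037).

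All 5 ADAMTSL genes had a negative log2 fold change, and 3 were called. *Adamtsl4*, which encodes a protein of fibrillin microfibrils, was at 6.21, 6.15, 6.50, 6.39 and 6.67 FPKM in si-Control and 4.88, 5.47, 4.93, 5.21 and 4.73 FPKM in si-*Fndc1* (log2 fold change -0.33, SE 0.05, edgeR adjusted p = 0.00079). *Adamtsl3* was at 6.63, 6.79, 6.34, 7.29 and 7.15 FPKM against 5.74, 6.25, 5.43, 5.61 and 5.56 FPKM (-0.25, SE 0.05, adjusted p = 0.0034). Both groups were separate in these genes, but only *Adamtsl3*, with a GC content of 49.2%, was also called after the correction (-0.20, adjusted p = 0.0066; *Adamtsl4* -0.08, adjusted p = 0.19). *Adamtsl5*, the most abundant of them, was at 25.6, 23.8, 26.0, 26.1 and 26.0 FPKM against 21.2, 25.2, 20.6, 23.4 and 22.5 FPKM. Its call (-0.17, SE 0.05, adjusted p = 0.034) was lost without si-Control replicate 1, 3, 4 or 5 or si-*Fndc1* replicate 1, 3 or 5, each left out alone (adjusted p up to 0.079), and the corrected value was 0.06. *Adamtsl1* (-0.37, SE 0.13, adjusted p = 0.054) was called without si-Control replicate 3 or si-*Fndc1* replicate 5 (adjusted p down to 0.016). It was also called lower by DESeq2 (0.017), by edgeR with a replicate block (0.034) and by limma on quantile-normalized log2(FPKM + 1) (0.047). In total *Adamtsl1* was called in 5 of 24 alternatives. Its GC and length corrected value was -0.14 (adjusted p = 0.52). *Adamtsl2*, which binds latent TGF-β binding protein, was at -0.06 (SE 0.15).

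**Figure D3:**
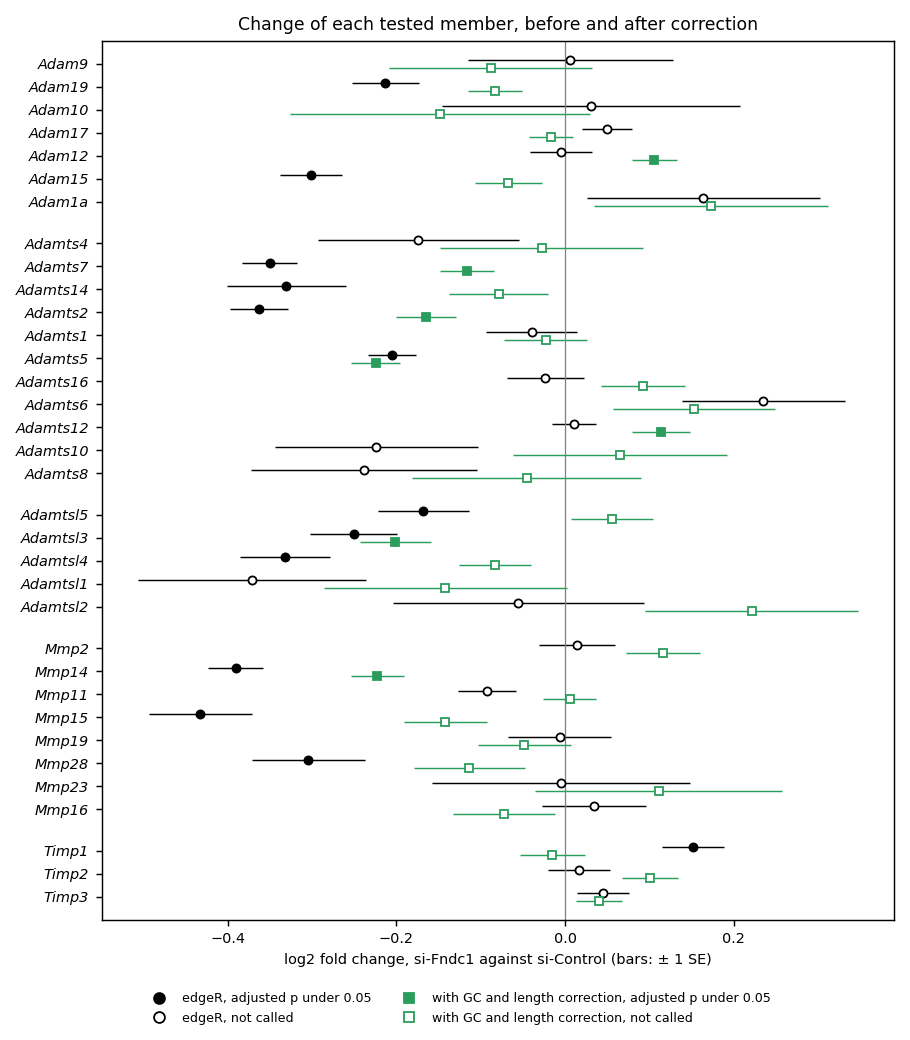
log2 fold change (si-Fndc1 over si-Control) of the 34 tested members with ± 1 SE, from edgeR as reported (black circles) and with the GC and length correction (green squares), filled where the adjusted p is under 0.05. Of the 12 falls, 5 stay filled after the correction, and the square of Timp1 lies at -0.02.

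Of the 7 tested membrane-anchored ADAMs 2 were called lower. *Adam19* and *Adam15*, which encode meltrin β and metargidin, fell without overlap. *Adam19* was at 28.2, 26.7, 29.5, 28.4 and 28.6 FPKM in si-Control and 25.7, 25.3, 22.9, 24.3 and 23.3 FPKM in si-*Fndc1* (log2 fold change -0.21, SE 0.04, edgeR adjusted p = 0.0020). *Adam15* was at 10.0, 10.0, 9.67, 9.78 and 9.66 FPKM against 7.54, 8.38, 7.67, 8.07 and 7.98 FPKM (-0.30, SE 0.04, adjusted p = 0.00016). Neither was called after the correction (-0.08, adjusted p = 0.083 for *Adam19*, and -0.07, adjusted p = 0.27 for *Adam15*). *Adam12*, meltrin α, is known from myoblast fusion and was at 9.24, 9.10, 9.34, 9.65 and 9.93 FPKM against 9.73, 9.85, 9.03, 9.12 and 9.12 FPKM. Its log2 fold change of -0.01 (interval -0.08 to 0.07, adjusted p = 0.93) became a call of 0.11 (adjusted p = 0.017) with the correction.

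*Adam17*, the main sheddase of TNF and of several EGF receptor ligands, was at 10.3, 10.3, 10.6, 11.1 and 10.6 FPKM in si-Control and 11.1, 11.0, 10.6, 10.8 and 11.0 FPKM in si-*Fndc1* (log2 fold change 0.05, interval -0.01 to 0.11, edgeR adjusted p = 0.22), and *Iah1* on the opposite strand at its end had 20.2% as many counts. *Adam10*, the sheddase of Notch receptors and cadherins, was at 12.6, 18.8, 20.0, 20.9 and 19.4 FPKM in si-Control and 11.5, 21.4, 20.6, 19.9 and 19.8 FPKM in si-*Fndc1*. Replicate 1 was low in both groups, and the log2 fold change was 0.03 (SE 0.18, adjusted p = 0.91). *Adam9*, the most abundant ADAM, was at 54.1, 53.9, 40.1, 56.5 and 42.8 FPKM against 54.5, 56.1, 41.1, 53.5 and 42.0 FPKM, low in replicates 3 and 5 of both groups, with a log2 fold change of 0.01 (SE 0.12, adjusted p = 0.98). At ratios chosen after the values were seen, *Adam10* was the only 1 of 6924 genes at 5 FPKM or more with both replicates 1 below 0.8 times every other library, and *Adam9* the only 1 with replicates 3 and 5 below 0.85 times the rest.

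**Figure D4:**
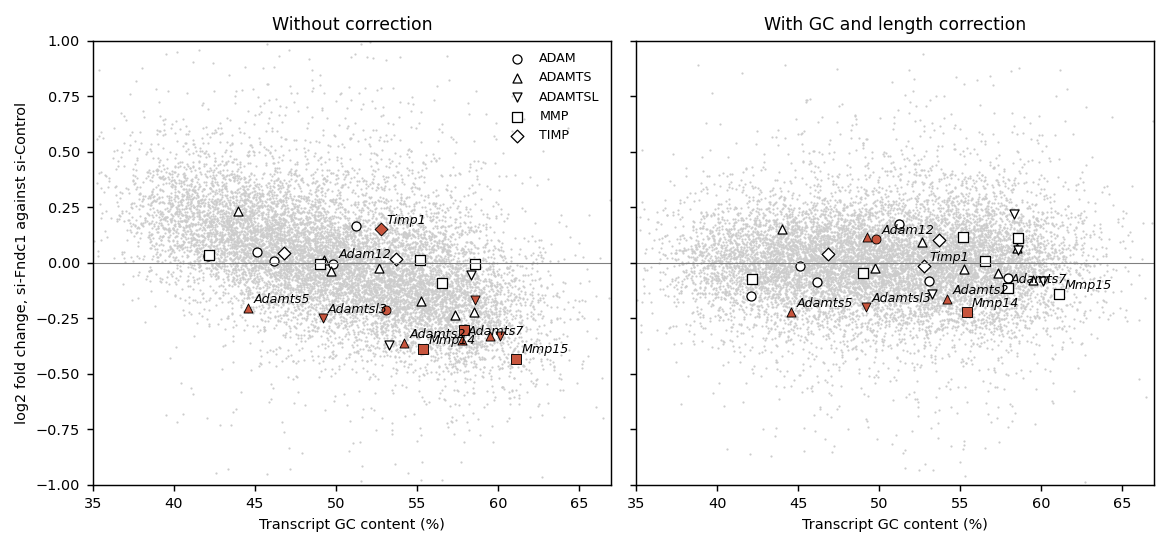
log2 fold change (si-Fndc1 over si-Control) against the GC content of the longest reference transcript, without (left) and with (right) the GC and length correction, for all tested genes with a transcript (grey, those beyond ± 1 not shown) and for the 34 members (symbols by subfamily, red where called). The falling members sit mostly at high GC content on the left, and the slope over the grey points is gone on the right.

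Of the members below the filter, *Adam8* and *Adamts15* were the highest, with 144 to 248 and 219 to 401 counts per library, and the next, *Adam1b*, had a mean of 0.131 FPKM. *Mmp9*, the second gelatinase, was listed with 0 to 21 counts and at 0 in 5 of the 10 libraries, and *Mmp13*, *Mmp10*, *Mmp12* and *Mmp7* had counts in 4, 3, 2 and 1 library. No count was listed for *Mmp3*, *Mmp1a*, *Mmp1b*, *Mmp20*, *Mmp21*, *Mmp25* and *Mmp27*, for *Adamts13* and *Adamts19*, or for 15 ADAM genes, many of which are known from testis. When genes down to 1 count were also tested, 61 members entered and 12 were called, 1 of them higher, beside 14.4% of the 28952 genes in that fit.

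The promoters of the members were searched for the site of AP-1, a factor known from the regulation of several MMP genes. AP-1 is the FOS and JUN dimer, and its usual site has C or G as the central base of TGANTCA. The search took TGANTCA with any central base, which is called the site here. It reads the same on both strands apart from that base. RefSeq windows of 300 bases (250 before to 50 after the start site, GRCm38.p6) were matched to 54 of the 85 members. Of all genes with a window, 8.97% of 27025 held the site. It was in 8 of 13 windows of MMP genes that were not tested and 0 of 5 of tested MMP genes, in 4 of 13 of the ADAM genes and 0 of 6 of the ADAMTS genes that were not tested, and in 1 of the 21 tested members with a window, *Adam19*. All 8 MMP genes with the site are neighbours on chromosome 9. With C or G as the central base, the site was in 7 of the 13 windows of untested MMP genes and in 5.95% of all genes. The median GC content was 43.7% for the windows of untested MMP genes, 63.7% for those of tested ones and 52.8% for all genes, and whether the shares differ beyond base composition was not tested. The site with 20 bases on each side is shown for 5 of these MMP genes, none above 0.083 FPKM in any library, and for *Adam19*, with the site in capitals.

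Mmp3: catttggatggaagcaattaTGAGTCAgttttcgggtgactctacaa
Mmp10: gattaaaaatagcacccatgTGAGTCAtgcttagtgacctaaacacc
Mmp12: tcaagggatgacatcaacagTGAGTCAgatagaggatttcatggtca
Mmp13: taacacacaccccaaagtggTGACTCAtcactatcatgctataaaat
Mmp1a: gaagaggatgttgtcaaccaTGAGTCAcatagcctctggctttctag
Adam19: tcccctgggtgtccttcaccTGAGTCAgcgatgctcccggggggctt

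The first base of the site lies 46 bases before the start site in Mmp3 (window at chr9:7445756-7445802, + strand, GRCm38.p6), 63 in Mmp10, 44 in Mmp12, 35 in Mmp13 and 73 in Mmp1a. In Adam19 it lies 131 bases before 1 of the gene's start sites (chr11:46055833-46055879, + strand). These matches describe the sequence alone.

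Of 56 partner genes, which activate, carry, inhibit or are cut by these proteases, 36 were tested and 18 called, 13 lower and 5 higher, beside 17.2% of all tested genes lower and 17.3% higher. With the GC and length correction 11 were called, 6 lower and 5 higher, beside 11.0% and 11.6% of all genes. Among the genes for activation and transport, 4 of 10 fell. *Rhbdf2* (iRhom2), which carries ADAM17 to the surface, fell from 3.49 ± 0.217 to 2.49 ± 0.246 FPKM (SD, n = 5, log2 fold change -0.48, edgeR adjusted p = 0.00081). *Rhbdf1* (iRhom1) was called at -0.10 (adjusted p = 0.041), a call that was lost without si-Control replicate 1, 2, 3 or 5 or si-*Fndc1* replicate 1, 3, 4 or 5, and with the correction it was called in the other direction (0.18, adjusted p = 0.0033). Of the tetraspanins that partner ADAM10, *Tspan15* fell from 8.93 ± 0.206 to 7.07 ± 0.447 FPKM (-0.33, adjusted p = 0.00027). *Tspan14* was at 21.8, 23.5, 22.2, 23.4 and 54.2 FPKM against 15.6, 16.6, 17.2, 15.8 and 16.8 FPKM. Its log2 fold change was -0.82 (adjusted p = 0.022), and -0.46 (adjusted p = 0.00015) without si-Control replicate 5. *Furin*, the proprotein convertase that removes the prodomain of many of these enzymes, ranged from 14.2 to 25.1 FPKM in si-Control and from 10.6 to 17.9 FPKM in si-*Fndc1* (-0.43, SE 0.20, adjusted p = 0.13).

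Among the 20 tested membrane proteins that are shed, 6 fell and 4 rose. *Notch3* fell from 22.4 ± 0.895 to 15.1 ± 0.286 FPKM (log2 fold change -0.56, edgeR adjusted p = 5.6e-06) and *Notch2* from 32.2 ± 1.74 to 23.8 ± 1.45 FPKM (-0.43, adjusted p = 0.00012; SD, n = 5), and both were also called lower after the correction (-0.25 and -0.22). *Notch1* (-0.46), the Notch ligand gene *Dll1* (-0.21), *Tnfrsf1a* (-0.13), a TNF receptor gene, and *App* (-0.08), the amyloid precursor gene, were lower too, without a call in that direction after the correction. *App* was then called in the other direction (0.10, adjusted p = 0.022). *Sdc1*, the syndecan-1 gene, rose from 84.4 ± 3.75 to 93.4 ± 3.50 FPKM (0.15, adjusted p = 0.011, corrected 0.27), and *Cd44* (0.18), *Ereg* (0.32) and *Kitl* (0.19) rose without a call after the correction. Some of these calls were lost when 1 library was left out: *Dll1* without si-Control replicate 3 or 5 or si-*Fndc1* replicate 1, 4 or 5 (adjusted p up to 0.074), and *Ereg* without si-Control replicate 4 or 5 or si-*Fndc1* replicate 2 (up to 0.060). *Kitl* was lost without si-Control replicate 1, 2 or 3 or si-*Fndc1* replicate 2, 4 or 5 (up to 0.077), and *App* without si-Control replicate 1, 3, 4 or 5 or si-*Fndc1* replicate 1, 3, 4 or 5 (up to 0.074).

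Of the 9 matrix substrates 3 were expressed highly enough to be tested. *Vcan*, the versican gene, was at 36.5 to 39.7 FPKM in si-Control and 36.6 to 39.4 FPKM in si-*Fndc1*, with a log2 fold change of 0.00 (SE 0.03, edgeR adjusted p = 0.93). *Dcn*, the decorin gene, rose from 15.5 ± 0.340 to 20.2 ± 0.949 FPKM (SD, n = 5, 0.39, adjusted p = 2.9e-05, corrected 0.23), and *Nid1*, the nidogen-1 gene, fell by 0.12 on the log2 scale (adjusted p = 0.016, corrected -0.07, adjusted p = 0.11). *Acan*, the aggrecan gene, had no count in any library. Of the 2 tested relatives among the other metzincins, *Bmp1*, the procollagen C-proteinase, fell from 48.6 ± 2.08 to 41.3 ± 0.635 FPKM (-0.23, adjusted p = 0.00051), with a corrected value of 0.07 (adjusted p = 0.19). *Pappa*, which cuts IGF binding proteins, fell from 0.85 ± 0.042 to 0.638 ± 0.115 FPKM (-0.40, adjusted p = 0.016, corrected -0.38). *Reck*, a membrane-anchored MMP inhibitor, was at 1.52 to 1.96 FPKM in si-Control and 1.36 to 1.76 FPKM in si-*Fndc1* and was not called (-0.07, adjusted p = 0.60).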

How the data were processed

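Bulk RNA-seq of 10 C2C12 libraries was analysed from 1 deposited gene table. The authors deposited whole-number counts per gene without normalization, and beside each count they deposited an FPKM value, listed as 0.0001 where the count is 0 and read here as 0. Recomputed gene lengths varied by at most 0.449% (CV) between libraries over 9391 genes. The paper's methods name TopHat, mm10 and htseq-count, the series description names STAR, mm9 and 48 h after transfection, and the submitters' processing notes name GRCm39, cutadapt 1.9 and FastQC. The samples are recorded with 20% FBS for growth, whereas the paper's methods give C2C12 cells a lower share. Coordinates are printed as the table lists them unless NCBIM37 or GRCm38.p6 is named. The methods speak of fewer libraries than the 10 in the table, and all 10 were used. Deposited counts pile up at multiples of about 4 (10699 values of 4 against 3967 of 3 and 2243 of 5), so 1 count may not be 1 read, which was not tested further, and no counting interval or limit for a count of 0 is given.

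Groups came from the genotype recorded for each sample, and replicate numbers from the sample titles. Genes with a mean of at least 0.5 FPKM (13548) were tested with edgeR 4.0.16 (quasi-likelihood, TMM, R 4.3.3) with Benjamini-Hochberg adjustment. SE is the absolute log2 fold change divided by the square root of F, and an approximate 95% interval is the normal interval from it. FPKM values were compared by a two-sided exact permutation test, whose smallest p with 5 against 5 is 0.0079. The GC and length correction fitted a spline to each library (MASS) over 11185 genes with a reference transcript (NCBIM37, GENCODE), 82.6% of those tested and all 34 tested members, and used it as an offset. Alternatives were DESeq2 1.42.0, limma 3.58.1 on log2(FPKM + 1) or log2(FPKM + 0.1), RLE factors, other filters, each library left out, and a replicate block. The pipeline was tested on simulated data. Replicates of a group differed by more than sampling noise, so none was merged.

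The members, partner genes and marker lists were chosen with earlier results of these data known. Values in every library are given for the 3 most abundant members of each subfamily, for the 3 largest called rises and falls in each, for a fixed list of well-studied members, and called partner genes are summarised. No protein sequences were used here.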

Additional observations from a re-analysis of the deposited data

Results flagged for a closer look

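In 68 groups of 5 libraries (34 tested members in both groups), 5 held a library far from the other 4 by Dixon's criterion, where chance gives about 1 in 20 groups. *Adam10* was flagged in both groups for replicate 1, at 12.6 FPKM against 18.8 to 20.9 FPKM in the other si-Control libraries and at 11.5 FPKM against 19.8 to 21.4 FPKM in the other si-*Fndc1* libraries. *Adam1a* was low in the same si-Control replicate 1, at 0.506 FPKM against 0.739 to 0.811 FPKM, and its place is shared with a gene on the same strand that had 324% as many counts. *Adamtsl5* was low in si-Control replicate 2 (23.8 FPKM against 25.6 to 26.1 FPKM). *Mmp2* was high in si-*Fndc1* replicate 5 (278 FPKM against 243 to 248 FPKM), the library with the fewest counts (56332844). Without both libraries numbered 1, an alternative chosen after seeing the data, *Adam10* was not called.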

How the results depend on the processing

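The count of called members (13, 12 lower and 1 higher) was 7 with the GC and length correction (5 lower, 2 higher), 4 with that correction and the replicate block (4 lower, 0 higher), and 7 without the libraries numbered 3 and 5, an alternative added after seeing the data (7 lower, 0 higher) that leaves 3 libraries a group. Higher members numbered 2 by DESeq2 and with the replicate block and 0 on quantile-normalized log2(FPKM + 1). Leaving out 1 library gave 12 to 14 called members, 11 to 13 lower. Partner calls (18, 13 lower and 5 higher) were 11 with the correction (6 lower), 8 with the correction and the block (5 lower, 3 higher), and 8 without the libraries numbered 3 and 5 (6 lower, 2 higher). Higher partners were 2 on quantile-normalized values and 3 with no filter, with the block, or without both libraries numbered 1. Without 1 library, 14 to 16 partners were called, 10 to 13 lower and 3 to 5 higher. Counts divided by 4, also added later, gave totals within 1.5 times those reported.

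Over all tested genes together, same-numbered libraries correlated between -0.06 and 0.06, which shows no pairing by number across the transcriptome. A correlation over all genes cannot show whether same-numbered libraries share something in single genes. *Adam9*, *Adam10* and *Adamts4* were low in the same replicate numbers of both groups, and whether the numbers pair the samples was not tested further. The replicate block gave 15 called members and 3572 called genes in place of 4663. It called *Adamts4* (adjusted p = 0.027) and *Adamtsl1* (0.034) lower and *Adamts6* (0.037) higher. The unfiltered fit called 4164 of 28952 genes and the corrected one 2532 of 11185.

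Changes of sign in called values were as follows. With the correction *Adam12* was 0.11, *Adamtsl5* 0.0558 (0.0530 with the block), *Timp1* -0.0154 (-0.0161), *Rhbdf1* 0.18 (0.18), *Bmp1* 0.0650 (0.0647), *Kitl* -0.0228 (-0.0197) and *App* 0.10 (0.10). On quantile-normalized values *Mmp2* was -0.12, *Timp1* -0.0543 and *Timp2* -0.16. The cause was not tested. Sign changes of members called in neither fit were not counted. *Mmp14*, *Adamts2* and *Adamts5* were called lower in all 24 alternatives. In the exact permutation test, TMM-scaled CPM in place of FPKM moved *Adamtsl1* from p = 0.056 to 0.048, and no other tested member changed its side of 0.05.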
